A study of Mus musculus with 4 samples.

Results

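Myosin light chains, myosin heavy chains and troponin subunits are the contractile proteins whose isoforms mark atrial and ventricular muscle, and 10 of their genes were followed here through 4 single-cell libraries of developing mouse heart. The genes were chosen by symbol (Myl1, Myl2, Myl3, Myl4, Myl7, Myh6, Myh7, Tnni1, Tnni3 and Tnnt2), and all 10 were found among the 27998 genes of every library. The embryos and newborns were C57BL/6 and came from a cross of Tie2-Cre with a Rosa26 tdTomato reporter. Cre driven by the Tie2 promoter is active in endothelial cells, so their descendants carry the red label, and in all 3 groups only tomato-sorted cells were loaded. At E9.5 the atrioventricular canal (AVC) was dissected and gave 1 library, and later stages used mitral valve, with 1 library from E16.5 fetuses and 2 from P0 newborns. Each stage pooled at least 60 embryos, dissociated with enzyme for 5 or 10 min, and the age field of the E16.5 library is mistyped, so its age was read from its title. The labels do not say that the P0 libraries came from separate animals, so the spread behind each p-value may be technical.

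The libraries differed in depth. After filters, 1195 cells with a median of 24637 UMIs (unique molecular identifiers, 1 per captured RNA molecule) remained at E9.5, 310 cells with a median of 2353.5 at E16.5, and 281 and 176 cells with medians of 5155 and 4433 at P0. The E9.5 counts hold 543 cardiomyocytes, defined as cells with at least 100 UMIs of Myl7, Myl4, Tnnt2 and Actc1 together per 10000 UMIs, although the sort was for the label of the endothelial lineage. Of all cells, 8 lay just below this threshold (80.0 to 100, the nearest at 99.4) and 5 just above it (100 to 120, the nearest at 102). They also hold 240 erythroid-like cells (at least 2000 globin UMIs per 10000), 174 endothelial-like cells (at least 5 UMIs of endothelial markers per 10000) and 238 other cells, all of them ranges of a score and not cell types. The label was checked on 5 markers that did not define the cells, all detected: Tnnc1 stood at 34.8 UMIs per 10000 in cardiomyocytes against 1.61 to 1.97 in the other 3 classes, Ttn at 11.5 against 0.148 to 0.214, Nkx2-5 at 6.52 against 0.169 to 0.577, Actn2 at 4.82 against 0.102 to 0.132 and Ryr2 at 1.13 against 0.0243 to 0.0692. The P0 barcode lists shared 4 barcodes, and shared barcodes could not be counted for the other libraries, whose lists hold all 737280 possible barcodes.

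In a sarcomere, myosin heavy chains form the thick filament and its motor heads, and each head carries an essential and a regulatory light chain. Troponin T anchors the troponin complex to tropomyosin on the thin filament, and troponin I holds contraction off until calcium binds. Heart muscle begins with a mixture of isoforms: Myl7 (the atrial regulatory light chain) and Myl4 (the atrial and embryonic essential chain) are found throughout the early heart tube, Myl2 and Myl3 are the ventricular partners, and Myl1 is the essential chain of fast skeletal muscle. Myh6 and Myh7 encode alpha and beta myosin heavy chain, Tnni1 the slow skeletal troponin I used by the fetal heart, Tnni3 the cardiac troponin I that replaces it, and Tnnt2 cardiac troponin T.

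The heavy chain genes lie next to each other on chromosome 14, Myh6 at 54941921 to 54966927 and Myh7 at 54970684 to 54994626, both on the minus strand (mm10, GENCODE vM21). Their coding sequences are 91.4% identical, against 72.8% for Myl3 and Myl4, 61.0% for Myl2 and Myl7 and 53.3% for Tnni1 and Tnni3. The last 60 coding bases of the heavy chains are shown because a 3' count must tell these genes apart near this end. Capitals mark bases without a match in the alignment, 11 in each, and 49 bases are identical.
Myh6: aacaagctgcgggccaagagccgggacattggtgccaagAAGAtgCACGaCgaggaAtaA
Myh7: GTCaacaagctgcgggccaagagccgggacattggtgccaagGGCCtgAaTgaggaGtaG
Of all 57-base stretches in the last 500 bases of the main transcript, 40.3% of those of Myh6 also occur in Myh7 and 30% of those of Myh7 in Myh6, so reads of these stretches cannot be assigned to 1 gene and both levels may be understated. The figure was 17.8% for Myl1, shared with the pseudogene Mylf-ps, and 0 for the other 7 genes. Genes on the opposite strand overlap Myl2, Myl3, Myl4, Myh6 and Myh7, and the counting strand is not given in the sources used here, so reads of these pairs may not have been told apart. On the same strand, Dnaaf3 overlaps Tnni3, Mir208a overlaps Myh6 and Mir208b overlaps Myh7, and strand alone could not separate these.

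Promoter windows, the 250 bases before a start site in RefSeq (GRCm38.p6), could be matched to 8 of the 10 genes, all but Myl1 and Myl2. The windows of Myl7, at chr11:5898783-5899032, and Myh7, at chr14:54994627-54994876, both on the minus strand, are shown because one gene was high in nearly every cardiomyocyte and the other varied between them. Capitals mark matches to motifs searched on both strands: the GATA motif (GATA with A or T before it and A or G after it), the NK2 motif (TNAAGTG), and the CArG box and MEF2 motif by name.
Myl7: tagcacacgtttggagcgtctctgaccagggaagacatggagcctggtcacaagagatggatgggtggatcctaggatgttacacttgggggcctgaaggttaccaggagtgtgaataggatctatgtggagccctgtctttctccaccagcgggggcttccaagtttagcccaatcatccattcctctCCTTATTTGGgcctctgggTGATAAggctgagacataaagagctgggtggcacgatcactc
Myh7: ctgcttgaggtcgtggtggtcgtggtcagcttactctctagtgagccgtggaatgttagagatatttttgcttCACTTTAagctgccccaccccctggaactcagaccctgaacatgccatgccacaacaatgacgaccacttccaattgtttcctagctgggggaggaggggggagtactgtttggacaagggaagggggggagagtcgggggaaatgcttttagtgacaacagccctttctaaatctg
The capitals are a CArG box followed by a GATA motif in Myl7 and an NK2 motif in Myh7. Among the 8 matched windows, 3 held a GATA motif, 2 a CArG box, 1 an NK2 motif and 0 a MEF2 motif, and no matches overlapped. Among all 32536 promoter windows of this length the shares were 26.5%, 1.48%, 10.0% and 2.89%. A match describes letters only.

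In E9.5 cardiomyocytes the regulatory light chain was almost all of the atrial form. Summed over the 543 cells, Myl7 stood at 254 UMIs per 10000 (median cell 267, middle 50% of cells 197 to 313) and Myl2 at 8.34 (median cell 1.2, middle 50% 0.328 to 7.06, highest cell 128). Myl7 entered the definition of these cells and Myl2 did not. Each UMI stands for 1 molecule whatever the transcript's length, so levels of different genes were compared without a length correction, although capture can differ between genes.

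The essential light chains followed in the order Myl4, Myl3, Myl1. Myl4 had 92.7 UMIs per 10000 (median cell 94.2, middle 50% 76.7 to 111), Myl3 had 26.4 (median 26.0, middle 50% 13.2 to 38.6) and Myl1 had 12.1 (median 11.1, middle 50% 6.01 to 16.6). The fast skeletal chain Myl1 was thus below both cardiac chains in the sums, although its middle range overlapped that of Myl3. Among the troponins, Tnnt2 had 45.0 UMIs per 10000 (middle 50% 34.3 to 54.4), Tnni1 had 36.1 (28.7 to 43.5) and Tnni3 had 18.4 (11.7 to 25.3), and the ranges of neighbours in this order overlap only for Tnnt2 and Tnni1. Tnni1, which was not used to choose the cells, was found in every cardiomyocyte, with a lowest value of 9.08 UMIs per 10000. Alpha heavy chain exceeded beta, with Myh6 at 10.1 (median 9.24, middle 50% 5.36 to 14) and Myh7 at 3.72 (median 1.76, middle 50% 0.681 to 4.06, highest cell 42.7).

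**Figure D1:**
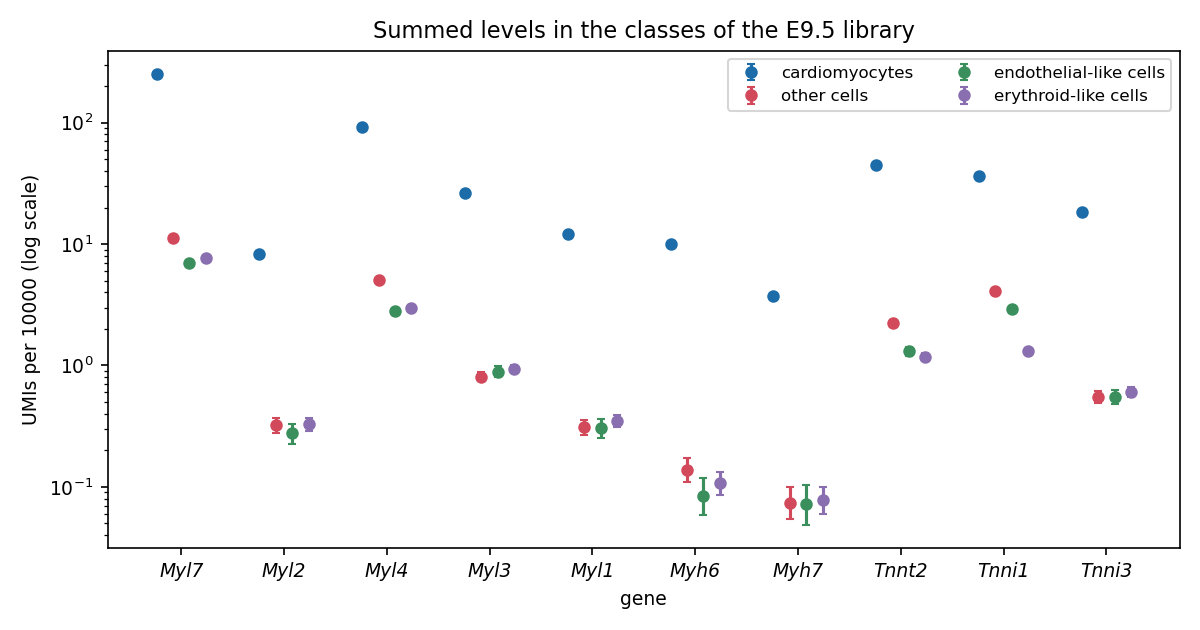
Summed levels of the 10 genes (UMIs per 10000, log scale) in the 4 classes of the E9.5 library, with exact 95% Poisson intervals that are narrower than most points. Cardiomyocytes lie above the other classes for every gene, and Tnni1 is the gene for which erythroid-like cells lie clearly below endothelial-like and other cells.

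Each isoform pair can be read as a share. Over all cardiomyocytes, Myl2 made up 3.18% of Myl2 and Myl7 together, Myl3 22.2% of Myl3 and Myl4, Myh7 26.9% of both heavy chains and Tnni3 33.7% of both troponin I genes. In 347 of 543 cells the Myl2 share was below 1%, and it was above 25% in 24 cells and above 50% in 0, which with 543 cells allows up to 0.552% of cells. The heavy chain share spread furthest: of 533 cells with a UMI of either gene, 61 had a Myh7 share below 1%, 48 a share of 50 to 75% and 50 a share of at least 75%. The troponin I share lay between 25 and 50% in 382 of 543 cells (middle 50% of cells 24.9 to 40.2%). The Myl2 share had the narrowest middle 50%, 0.129 to 2.54%. Myl7 was the larger regulatory chain in every one of the 543 cells. Myl7 and Myl4 helped to choose these cells, so cells low in both were disfavoured. The Myl2 and Myl3 shares therefore depend partly on that choice.

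Some genes varied together from cell to cell. Over the 543 cells the correlation of log2(UMIs per 10000 + 1) was 0.78 for Myl4 and Myl7, 0.70 for Myl4 and Tnnt2, 0.67 for Myl3 and Tnni3 and 0.64 for Myl2 and Myh7. Between partners of a pair it was 0.56 for Tnni1 and Tnni3 and 0.53 for Myl3 and Myl4, against 0.07 for Myh6 and Myh7 and −0.05 for Myl2 and Myl7. The points are cells of 1 library that share its background RNA and differ in depth, so these values are descriptions. Myl7, Myl4 and Tnnt2 also helped to choose the cells. Among 2881 other genes, the most alike were Mpped2 (0.58), Pln (0.54) and Ndufs6 (0.51) for Myl2 and Pln (0.52), Ccnd2 (0.46) and Mpped2 (0.43) for Myh7. Pln encodes phospholamban, the inhibitor of the calcium pump of the sarcoplasmic reticulum. Tnnc1 (cardiac troponin C) led for Myl7 (0.72), Myl4 (0.73) and Myh6 (0.60), and Tpm1 (tropomyosin) for Tnnt2 (0.65). Cox6a2, a muscle subunit of cytochrome c oxidase, led for Myl1 (0.58), Myl3 (0.67), Tnni1 (0.59) and Tnni3 (0.69).

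Myl2 divided the cardiomyocytes unevenly. It was under 1 UMI per 10000 in 249 cells (45.9%), from 1 to under 5 in 140, from 5 to under 20 in 65 and at least 20 in 89 (16.4%), the last called Myl2-high below. In erythroid-like cells, which should lack the gene, 220 of 240 cells were under 1 and the other 20 were under 5. At a fixed 5000 UMIs per cell, 50.8% of cardiomyocytes had a UMI of Myl2 against 14.6% of erythroid-like cells, whose unthinned median depth was 32219 UMIs against 23442. Myh7 gave 59.1% against 4.17% and Myh6 91.3% against 6.67%. Just below the Myl2 threshold, 5 cells lay from 16 to 20, and 12 lay from 20 to 24.0.

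Position along the heart tube was first read from 2 genes outside the set: Rspo3 (a Wnt pathway agonist) for the canal and Nppa (the atrial natriuretic peptide precursor) for the working chambers. With at least 1 UMI of Rspo3 per 10000 and under 10 of Nppa, 171 cells (31.5%) were called canal, and with the reverse 87 (16%) were called chamber. Both thresholds were passed by 4 cells and neither by 281 (51.7%). Tbx2 and Tbx3, repressors that mark canal muscle and were not used for this split, stood at 0.695 and 0.514 UMIs per 10000 in canal cells against 0.0534 and 0.0437 in chamber cells. The shares of these subsets depend on the dissection and on the sort.

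Of the 10 genes, 2 were at least 2-fold higher in chamber than in canal cells and 0 were at least 2-fold lower, against 2.55% higher and 8.10% lower among the 10163 genes with at least 20 UMIs in the 2 subsets. Myl2 was at 18.2 against 7.37 UMIs per 10000, a ratio of 2.47 (95% interval 2.36 to 2.60), and Myh7 at 7.32 against 3.07, a ratio of 2.39 (2.21 to 2.58). Such ratios have conditional binomial intervals for counting error only, because 1 library has no replicate and therefore no test. The other 8 genes had ratios from 0.798 (Tnni3, 18.4 against 23.1) to 1.29 (Myh6, 11.7 against 9.13), and Myl7 was at 232 against 280. The median log2 ratio was −0.04 over the 10 genes and −0.11 over all genes compared. With the Rspo3 and Nppa thresholds doubled, Myl2 fell under 2-fold (log2 ratio 0.87) and Myh7 alone passed it (1.19).

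The chamber cells were themselves divided. Their median Myl2 level was 1.18 UMIs per 10000, below the canal median of 3.21, and their upper quartile was 42.1 against 9.78. Myl2-high cells numbered 33 of 87 in the chamber subset (37.9%), 21 of 171 in the canal subset (12.3%) and 34 of 281 among cells with neither gene (12.1%). Canal cells thus carried low Myl2 more evenly, and chamber cells held it either near background or high.

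Within the chamber subset, Myl2-high cells differed from the other 54 in several partners. Myh7 was at 16.8 against 2.49 UMIs per 10000, 6.76 times as high, and Myh6 at 7.03 against 14.1, a ratio of 0.498 (0.450 to 0.550). Myl7 was at 165 against 266 (ratio 0.619), Myl4 at 80.1 against 107 (0.751) and Myl3 at 40.7 against 24.9 (1.63). Myh7 therefore made up 70.5% of heavy chain UMIs in the Myl2-high chamber cells and 15.0% in the rest. Leaving aside Myl2, which made the split, 1 gene of the set passed 2-fold in each direction, against 2.96% higher and 7.54% lower of 7424 genes.

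Within the canal subset the same split gave a smaller ratio for Myh7 and larger ones for Myl3 and Myl1, and the difference between the subsets was not tested. Myh7 was at 6.79 against 2.58 UMIs per 10000, a ratio of 2.64, Myl3 at 52.0 against 29.2, a ratio of 1.78, and Myl1 at 20.5 against 13.5, a ratio of 1.52 (1.14 in the chamber subset), while Myh6 (8.73 against 9.18) and Myl7 (262 against 283) had ratios of 0.951 and 0.926. The Myh7 share was 43.8% in Myl2-high and 21.9% in the other canal cells. Besides Myl2, Myh7 alone of the 10 genes passed 2-fold, against 2.93% higher and 8.47% lower of 9384 genes.

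A second split used transcription factors outside the set. Every cell was thinned to 10000 UMIs, which left out 55 shallower cells. The 91 cells with a UMI of Irx4 or Hey2, factors of ventricular muscle, and none of Nr2f1 or Nr2f2, factors of atrial muscle, were compared with the 254 cells of the reverse pattern. Both kinds were found in 20 cells and neither in 123. These factors give few UMIs per cell, so a cell without one was not shown to lack it.

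**Figure D2:**
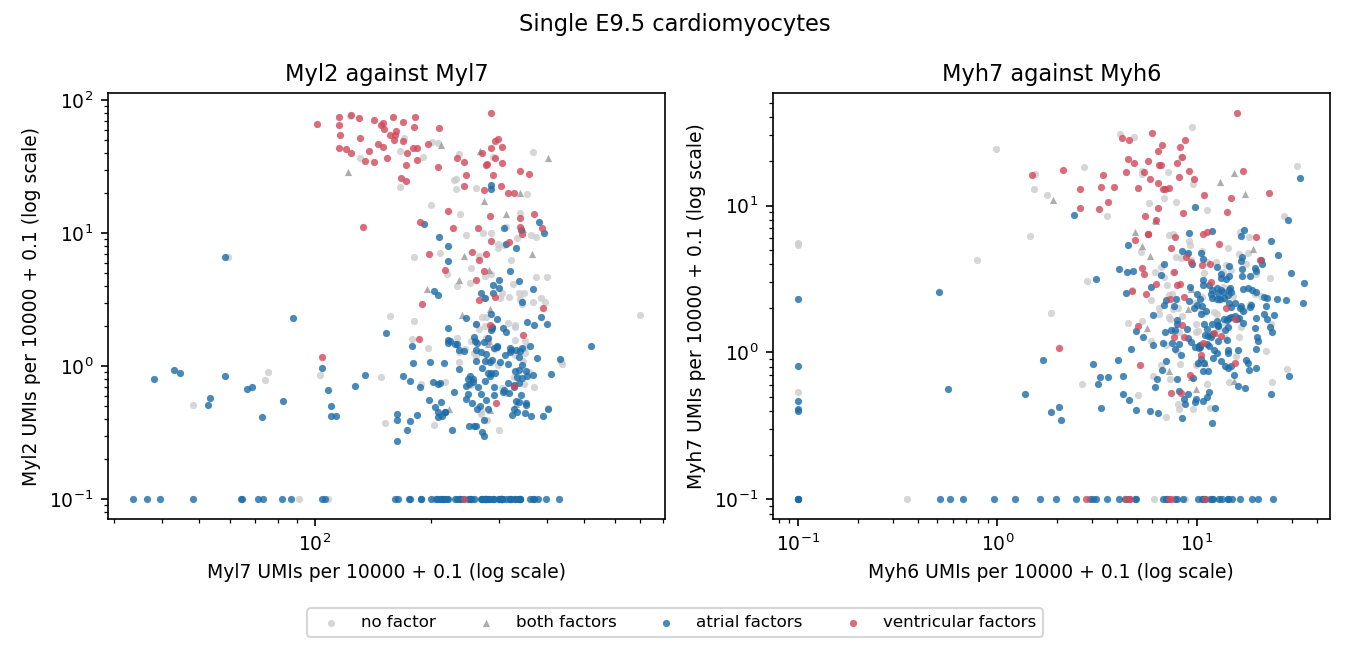
Single E9.5 cardiomyocytes with at least 10000 UMIs, as Myl2 against Myl7 and Myh7 against Myh6 (UMIs per 10000 plus 0.1, log scales), coloured by the factors found in the thinned cell. Cells with ventricular factors reach the upper part of both panels but also lie lower, and 58 of these 91 cells were Myl2-high. Cells with atrial factors lie mostly at low Myl2 and low Myh7 with no matching loss of Myl7 or Myh6. Myl7 helped to choose all the cells shown.

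This split separated the isoforms further than Rspo3 and Nppa did. Myl2 was at 32.9 UMIs per 10000 in ventricular-factor cells and 1.15 in atrial-factor cells, a ratio of 28.6 (26.5 to 30.9), with median cells at 33.1 and 0.540. Myh7 was at 9.31 against 1.61, a ratio of 5.76 (5.35 to 6.22), with median cells at 6.31 and 1.17. Myl3 was at 42.4 against 20.9, a ratio of 2.03 (1.98 to 2.09), with median cells at 42.4 and 20.7. The 3 genes that were at least 2-fold higher are the ventricular members of their pairs, and 0 of the 10 were at least 2-fold lower, against 3.36% higher and 4.31% lower of 10731 genes. Myl3 lay at the threshold and passed it in 0 of 8 alternative settings, with log2 ratios of 0.83 to 0.99.

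The remaining 7 genes differed less. Myl1 was at 17.4 against 10.6 (ratio 1.63), Tnni1 at 44.5 against 32.8 (1.35), Tnni3 at 20.6 against 16.9 (1.22) and Tnnt2 at 48.8 against 43.0 (1.14). The atrial chains were close to level, with Myl4 at 93.0 against 90.5 (1.03) and Myl7 at 228 against 251 (0.906), and Myh6 was at 7.83 against 11.1 (0.704, 0.667 to 0.743). The median log2 ratio was 0.36 over the 10 genes and −0.05 over all genes compared. Read as shares, Myl2 made up 12.6% of regulatory light chain UMIs in ventricular-factor and 0.456% in atrial-factor cells, Myl3 31.3% against 18.7% of essential chain UMIs, and Myh7 54.3% (52.7 to 55.9) against 12.7% (12 to 13.4) of heavy chain UMIs. The Tnni3 share, 31.7% against 34.0%, moved little. The ventricular members thus differed most. The atrial light chains were high in both groups, but Myl7 and Myl4 helped to choose all these cells, so this follows partly from that choice.

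**Figure D3:**
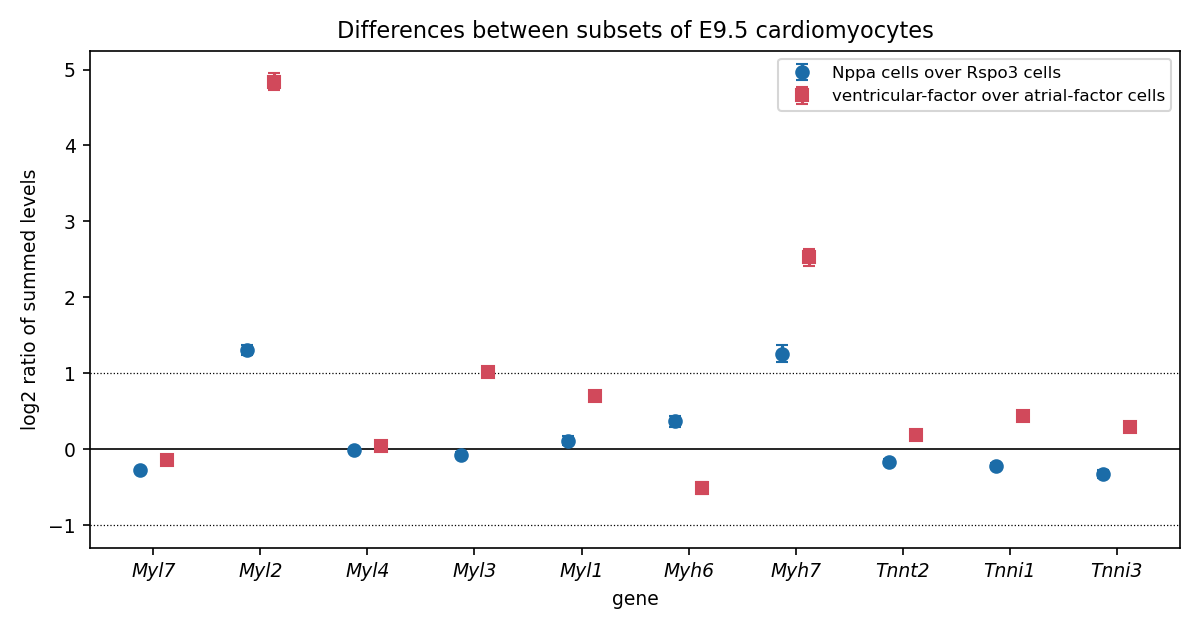
Log2 ratios of summed levels for the 10 genes between Nppa (chamber) and Rspo3 (canal) cells and between ventricular-factor and atrial-factor cells of the E9.5 library, with 95% counting intervals and dotted lines at 2-fold. Myl2 and Myh7 pass 2-fold in both comparisons and Myl3 reaches it in the second, while Myl7 and Myl4 stay near 0. Myl7, Myl4 and Tnnt2 helped to choose all these cells.

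Both splits can be crossed. Of the chamber cells, all 23 with ventricular factors were Myl2-high and 0 of 39 with atrial factors were, which allows up to 7.69% of such cells. Of the canal cells, 8 of 35 with ventricular factors and 1 of 52 with atrial factors were Myl2-high. Of the cells with neither Rspo3 nor Nppa at threshold, 27 of 32 and 1 of 161 were. Over all cells the counts were 58 of 91 (63.7%) and 2 of 254 (0.787%).

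Some genes of the other sarcomere lists passed 2-fold. Between ventricular-factor and atrial-factor cells the shares of all genes were 3.36% higher and 4.31% lower. Between chamber and canal cells they were 2.55% higher and 8.10% lower. Between ventricular-factor and atrial-factor cells, 1 of 10 thin filament genes was at least 2-fold higher (Acta1, skeletal actin, 12 against 5.82 UMIs per 10000), 1 of 8 Z disc genes (Myoz2, 0.119 against 0.0365) and 1 of 6 calcium handling genes (Pln, 2.19 against 0.138, a ratio of 15.9). Of 4 other striated troponin subunits, 3 were lower, all of them fast skeletal: Tnnc2 at 0.0286 against 0.245, Tnnt3 at 0.134 against 0.366 and Tnni2 at 0.334 against 0.833. Of 10 cardiac transcription factors, Hand1 was higher (1.51 against 0.217) and Isl1 lower (0.00954 against 0.187). Between chamber and canal cells, Tnni2 (1.37 against 0.270) and Tnnc2 (0.248 against 0.0560) were higher among 4 troponins, Mylpf (1.93 against 0.886) among 7 light chains and Pln (1.43 against 0.519) among 6 calcium genes, where Sln was lower (0.0340 against 0.166). Transcription factors were lower in 4 of 10, with Tbx2, Tbx3 and Hand1 furthest. In both comparisons, 0 of 7 further heavy chain, thick filament and M band genes passed 2-fold.

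Outside the cardiomyocytes, every gene of the set was detected at E9.5. In erythroid-like cells, which make no sarcomeres, Myl7 stood at 7.67 UMIs per 10000, Myl4 at 2.95, Tnni1 at 1.31, Tnnt2 at 1.18, Myl3 at 0.942, Tnni3 at 0.605, Myl1 at 0.350, Myl2 at 0.329, Myh6 at 0.107 and Myh7 at 0.0779. All 10 genes were at least 2-fold higher in cardiomyocytes, against 54.5% higher and 4.72% lower of 11736 genes. Markers of erythroid cells, 7 of 9 of them globins, took 3880 of every 10000 UMIs there, and the part of this in the high share was not tested. Of those 10, Myl7, Myl4 and Tnnt2 defined the cardiomyocytes. The levels in erythroid-like cells are taken here as background RNA and not as expression, which was not tested.

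A background from 1 source would keep the genes in 1 proportion in every class, so each gene was set against Myl7. Per 100 Myl7 UMIs, Myl4 had 36.5 in cardiomyocytes, 38.5 in erythroid-like and 39.9 in endothelial-like cells. Myl3 had 10.4, 12.3 and 12.6, and Tnni3 had 7.24, 7.89 and 7.84. The light chain and Tnni3 proportions of both classes were thus close to those of the cardiomyocytes. Myh6 lay furthest below the cardiomyocyte proportion with 3.99, 1.40 and 1.2, so that less of it than of the other genes was found outside cardiomyocytes. Myh7 was also lower, with 1.47, 1.02 and 1.02.

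Tnni1 departed from this proportion. It had 14.2 UMIs per 100 of Myl7 in cardiomyocytes and 17.1 (16 to 18.3) in erythroid-like cells, but 41.7 (38.9 to 44.6) in endothelial-like and 36.1 (34.4 to 37.8) in other cells. It was the 1 of 9 genes at least 2-fold above the erythroid-like proportion in each of these classes, where 0 were at least 2-fold below. The share of all genes on this scale was not computed. For other cells this call was lost with the cardiomyocyte threshold at 200 and with cells thinned to 5000 UMIs, where 4 genes were at least 2-fold below, although Tnni1 itself was at 33.7 and 39.4. In UMIs per 10000, Tnni1 stood at 2.93 in endothelial-like and 4.08 in other cells against 1.31 in erythroid-like cells, while Myl7 stood at 7.03, 11.3 and 7.67. On the UMI scale 52.5% and 57.1% of all genes were at least 2-fold above erythroid-like cells and 3.97% and 3.30% below, so a 2-fold difference on that scale was common. The median log2 ratio over all genes compared was 1.08 for endothelial-like and 1.19 for other cells. Tnni1 was at 1.16 and 1.64, so in endothelial-like cells it lay near the median gene. At 5000 UMIs per cell, 64.9% of endothelial-like and 72.3% of other cells had a UMI of Tnni1 against 52.1% of erythroid-like cells. The median depths were 22119.5, 24419 and 32219 UMIs. For Myl2 the same shares were 13.2%, 10.9% and 14.6%, and for Tnni3 20.1%, 22.3% and 27.9%, with the erythroid-like share the highest for both genes. Whether these UMIs are background or expression was not tested.

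**Figure D4:**
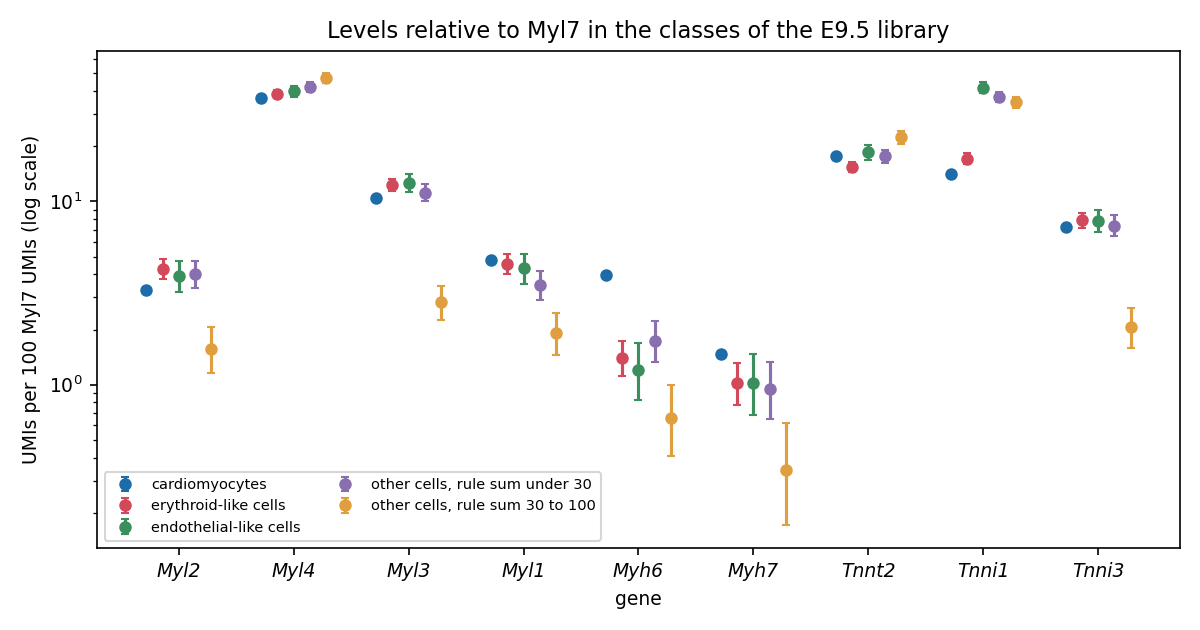
UMIs of 9 genes per 100 UMIs of Myl7 (log scale, 95% counting intervals) in classes of the E9.5 library, with the other cells split at 30 UMIs per 10000 of the 4 genes that define cardiomyocytes. Tnni1 lies higher in endothelial-like and other cells than in cardiomyocytes and erythroid-like cells. Myl2, Myl3, Tnni3 and Myh6 lie lowest in the other cells from 30 to 100. Myl7 helped to choose those cells, so low proportions to it there are no result.

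A group of 48 other cells lay between background and the cardiomyocyte threshold, with 30 to 100 UMIs of the defining genes per 10000, a range set after seeing the data. Myl7, Myl4, Tnnt2 and Actc1 chose these cells, so their levels there are no result. Tnni1 was at 8.49 UMIs per 10000 against 2.83 in the 190 other cells under 30, a ratio of 3.0 (2.77 to 3.26). Myl3 (0.687 against 0.845), Tnni3 (0.504 against 0.561) and Myl2 (0.382 against 0.303) had ratios of 0.814, 0.898 and 1.26, with intervals that include 1. Of the 7 genes that did not choose the cells, Tnni1 alone passed 2-fold higher, Myl1 was at 1.76 times, and 0 were 2-fold lower, against 4.83% higher and 7.56% lower of 10463 genes. All 4 epicardial markers were detected in these cells, at a summed 9.85 UMIs per 10000 against 1.99, and smooth muscle or pericyte markers (4 of 6, without Cspg4 and Kcnj8) at 10.4 against 3.46. The cardiomyocytes themselves had 70.2 UMIs per 10000 of the latter list. The Tnni1 proportion was 37.3 (34.9 to 39.7) per 100 Myl7 UMIs in the other cells under 30 and 34.8 (32.4 to 37.2) in the 48. Myl7 was used to divide these cells, so the 2 proportions depend partly on that choice.

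The valve libraries were sorted in the same way and held few muscle cells. At E16.5, 10 of 310 kept cells met the cardiomyocyte definition, and at P0 0 of 281 and 1 of 176. Summed over all kept cells, Myl7 had 8.10 UMIs per 10000 at E16.5 against 0.0112 and 0.230 in the P0 libraries, and Myl2 had 6.48 against 0.842 and 1.62. Myl3 had 4.54 against 0.502 and 1.12, Tnni3 2.47 against 0.318 and 0.639, and Myl4 2.15 against 0.167 and 0.180. The E16.5 library was above both P0 libraries for each of these. Myh7 had 2.01 against 0.178 and 0.0599, Tnni1 1.86 against 0.290 and 0.459, and Myh6 0.684 against 0.240 and 0.170. Tnnt2 was closest, with 2.14 against 1.15 and 1.24, and Myl1 scarcest, with 17 UMIs against 0 and 1, a ratio to summed P0 of 57 (8.94 to 2384). In such sums, fewer muscle cells and less RNA per cell cannot be told apart.

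By edgeR's quasi-likelihood test on the library sums, all 10 genes were higher at E16.5, against 15.6% of 9254 genes called higher and 15.4% called lower. The single E16.5 library was assumed to vary like the P0 libraries, which give the 1 residual degree of freedom. The test added 30.43 prior degrees of freedom borrowed from all genes, so the small p-values rest mostly on these. The log2 differences were 7.06 for Myl7 (SE 0.41, adjusted p 9.9e-15), 6.40 for Myl1 (SE 0.80, 1.6e-07), 4.56 for Myh7, 4.28 for Myl4, 3.17 for Myl3, 3.07 for Tnni3, 3.06 for Myl2, 3.0 for Tnni1, 2.33 for Myh6 and 1.47 for Tnnt2 (SE 0.22, adjusted p 3.3e-06). The remaining adjusted p-values lay between 5.6e-14 (Myl4) and 3.5e-07 (Myh6). Some values rest on 1 P0 library: without P0 replicate 1 the log2 difference was 5.72 for Myl7, 4.92 for Myl1 and 5.64 for Myh7, and without P0 replicate 2 it was 10.16 for Myl7 and 3.84 for Myl3, with 0 UMIs of Myl1 left at P0. Cardiomyocyte markers outside the set stood beside them at E16.5 and the P0 libraries as follows: Actc1 had 4.09 UMIs per 10000 against 0.452 and 0.859, Tnnc1 2.22 against 0.284 and 0.739, and Actn2 0.288 against 0.0613 and 0.0399. Ttn had 0.240 against 0.145 and 0.0200, Nkx2-5 0.0720 against 0.0223 and 0.00998, and Ryr2, with 3 UMIs at E16.5, 0.0360 against 0.0781 and 0.0499. Of the whole list of 9, which includes Myl7, Myl4 and Tnnt2, all were detected in each library, at a summed 19.3, 2.37 and 3.36, and its part in the result was not tested.

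Most of these UMIs came from a handful of cells. The 12 cells at E16.5 with at least 30 UMIs of the 10 genes per 10000 held 84.3% of the library's UMIs of these genes, and 4 cells in each P0 library held 58.8% and 76.1%. Without the cells that meet the cardiomyocyte definition, 6 genes were called higher and 0 lower by the same test, against 14.9% in each direction of 9013 genes. They were Myl7 (log2 difference 4.78, edgeR adjusted p 9.0e-07), Myh7 (1.68, 0.039), Myl3 (1.34, 0.0012), Myl4 (1.28, 0.014), Tnni3 (1.11, 0.0081) and Myl2 (0.85, 0.020). Tnni1 (0.73), Myl1 (2.35), Tnnt2 (−0.77) and Myh6 (−1.59) were not called, with adjusted p-values of 0.12, 0.40, 0.086 and 0.16, and the last 2 changed sign. Myl7, Myl4 and Tnnt2 are part of the cardiomyocyte definition, so removing these cells acts on their own values. Myl7 was then at 1.68 UMIs per 10000 against 0.0112 and 0.230, whereas Myl2 was at 0.988 against 0.842 and 0.862 and Tnnt2 at 0.363 against 1.15 and 0.742. On these shares of the library total, Myl7 was the 1 gene of the set whose E16.5 interval lay above those of both P0 libraries, and for the other 5 called genes it overlapped at least 1 of them. The Tnnt2 interval lay below both. The definition removed 10 cells at E16.5 but 0 and 1 at P0, where cells rich in the 10 genes stayed in. In P0 replicate 1 the 4 cells named above stayed in and held 67.0% of its Tnnt2 and 69.8% of its Myh6 UMIs. In P0 replicate 2, 1 cell left in held 33 of the 74 Tnnt2 UMIs. The part of these cells in the Tnnt2 and Myh6 values was not tested. TMM scaling, used in the test, sets the E16.5 library higher than its total does.

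**Figure D5:**
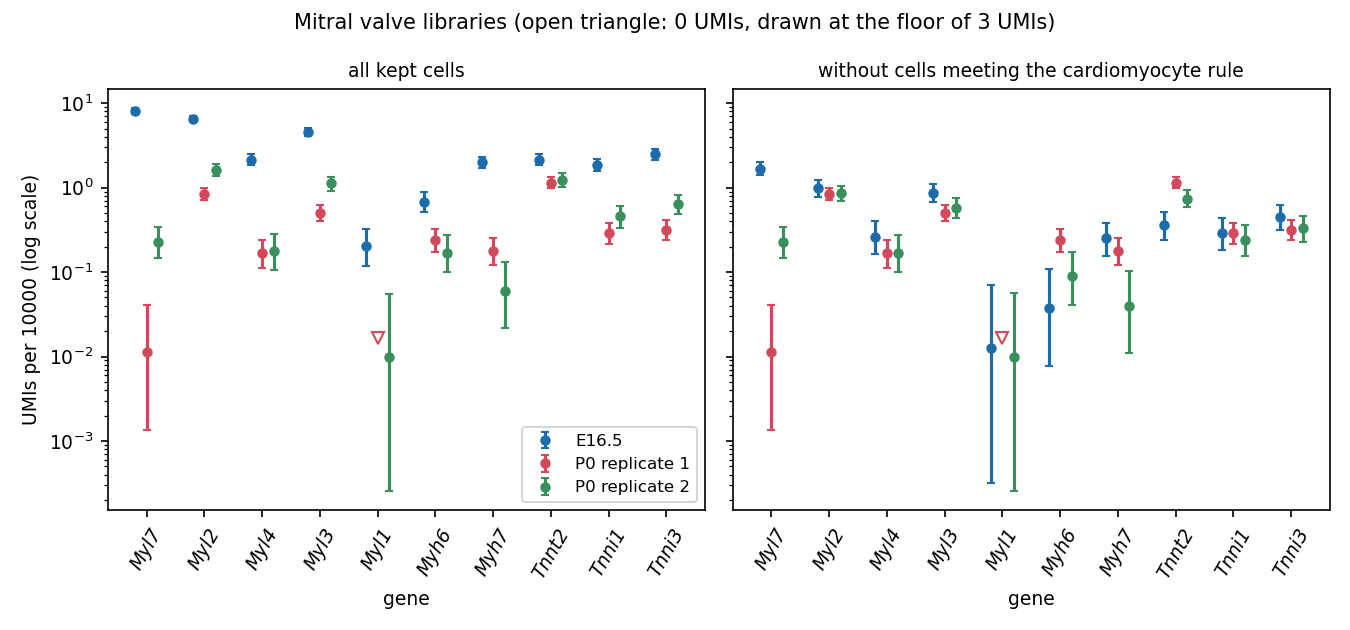
Levels of the 10 genes (UMIs per 10000, log scale, exact 95% Poisson intervals) in the 3 mitral valve libraries, over all kept cells and without cells that meet the cardiomyocyte definition; an open triangle marks 0 UMIs, drawn at the floor of 3 UMIs. E16.5 lies above both P0 libraries for all 10 genes in the left panel and, in the right panel, lies clear above both for Myl7 and clear below both for Tnnt2. Myl7 and Tnnt2 are part of that definition.

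Single E16.5 muscle cells ranged from an atrial to a ventricular pattern. One cell of 3529 UMIs held 350 of Myl7 and 54 of Myl4 with 0 of Myl2 and Myl3, and a second held 117 of Myl7 and 31 of Myl4, again with 0 of Myl2 and Myl3. Another, of 5330 UMIs, held 146 of Myl2, 76 of Myl3 and 51 of Myh7 with 3 of Myl7 and 0 of Myl4. Others carried both sets, such as a cell with 139 UMIs of Myl2, 92 of Myl3, 15 of Myl7 and 24 of Myl4. At P0, the 1 cell meeting the definition held 76 UMIs of Myl2 and 54 of Myl3 with 0 of Myl7 and 1 of Myl4, and another cell of the same library held 20 of Myl7 and 6 of Myl4 with 0 of Myl2. Over the 10 E16.5 muscle cells Myl2 made up 46.0% of regulatory light chain UMIs, but the first cell alone held 350 of the 541 of Myl7, and the median cell had a share of 81.2%.

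The filters removed muscle cells at E16.5. Another 19 cells there met the definition but had under 500 genes or over 10% mitochondrial UMIs, and they were among 136 cells left out that held 705 UMIs of Myl2, 689 of Myh7, 425 of Myl3 and 229 of Myl7. A doublet-scored cell with 457 UMIs of Myl7 and 0 of Myl2 was also left out. With every deposited cell included, all 10 genes were again called higher at E16.5.

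Of the other sarcomere genes, several lists also had members called higher at E16.5 over all kept cells by edgeR. The share of all genes was 15.6% higher and 15.4% lower. Genes called higher included 3 of 10 thin filament genes (Acta1 at a log2 difference of 6.02, Actc1 at 3.33, Tnnc1 at 2.84, with Tpm4 lower at −0.92), the thick filament genes Mybpc3 (4.19) and Ttn (1.94), 3 of 8 Z disc genes (Csrp3 at 4.53, Actn2 at 3.07, Tcap at 3.01) and 3 of 4 calcium genes (Sln at 6.79, Pln at 1.37, Atp2a2 at 1.21). Of 3 other striated troponin subunits 0 were called, and of 10 cardiac transcription factors 3 were called higher and 1 lower. The light chains called higher were 3 of 6 and are not specific to striated muscle: Myl9 (1.5), Myl6 (1.38) and Myl12a (0.72). Without the cells that meet the cardiomyocyte definition, 0 of 3 calcium genes and 1 of 3 Z disc genes (Csrp3, 2.92) were called higher, with Nexn lower (−2.88). Myl6 (1.39) and Myl12a (0.73) were still called, as were Actc1 (1.25) and Tnnc1 (1.41), while Tpm1 (−0.99) and Tpm4 (−0.88) were called lower. Actc1 is part of the definition by which the cells were removed. The share of all genes was then 14.9% in each direction.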

How the data were processed

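Droplet 3' libraries of tomato-sorted cells were sequenced on a NextSeq 500 with 57-nt reads, per the labels. The authors deposited UMI counts, unnormalized, from Cell Ranger 2.1.1 and mm10, per the submitters' processing notes. Neither settings nor strand of counting are given there. Cells with under 500 genes, over 10% mitochondrial UMIs or a Scrublet doublet call (scanpy 1.11.5, seed 0) were left out: 4, 6, 2 and 1 cells were called doublets. Because 15 symbols differed in the P0 replicate 1 list, genes were matched by identifier.

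UMIs were summed over cells, because cells are not replicates. E9.5 classes were compared without a test, over genes with at least 20 UMIs in both classes together, a gene counting as higher or lower at 2-fold. For E16.5 against P0, edgeR 4.0.16 under R 4.3.3 was used with TMM scaling on all 4 sums, keeping genes that in any library reach the CPM equal to 10 counts in the smallest. A gene was called at an adjusted p (Benjamini-Hochberg) under 0.05 with E16.5 beyond both P0 libraries. The common biological coefficient of variation was 0.144. DESeq2 1.42.0 was an alternative. Scripts were tested on simulated data.

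The 10 genes and all lists were chosen with earlier results of these data known. Named genes were the 10, the 3 genes most alike each over E9.5 cardiomyocytes (Pearson, genes with a mean of at least 0.5 UMIs per 10000) and up to 3 of the largest differences per sarcomere list. The result of 1 listed gene is not reported here. Intervals are exact at 95% and, like limits for a count of 0, taken at 3 counts, cover counting error only.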

Additional observations from a re-analysis of the deposited data

How the results depend on the processing

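All 10 genes remained higher at E16.5 than at P0 with library totals, with no filter on low counts, with every deposited cell and with DESeq2, but the background moved. Library totals gave 786 genes higher and 3317 lower in place of 1448 and 1424, shifting the median log2 difference of all genes from −0.06 to −0.69 and the share of calls that are higher from 50.4% to 19.2%, and DESeq2 gave 665 and 388. Without the cells that meet the cardiomyocyte definition, 6 of the 10 were higher, Myh6 was at −1.59 and Tnnt2, a gene of that definition, at −0.77. At E9.5, the share of Myl2-high cells was 21.5% with the Myl2, Rspo3 and Nppa thresholds at 0.5 times their values and 8.47% with them doubled, against 16.4%, and with them doubled 1 gene in place of 2 was at least 2-fold higher in chamber than in canal cells. Relative to Myl7, 0 genes in place of 1 were at least 2-fold higher in other than in erythroid-like cells with the cardiomyocyte threshold at 200 and with cells thinned to 5000 UMIs, and the thinning put 4 genes at least 2-fold lower in place of 0. Tnni1 itself stayed at 33.7 to 39.4 UMIs per 100 of Myl7 in other cells over 6 alternatives. The cause of these shifts was not tested. Over 8 alternatives the log2 ratio between ventricular-factor and atrial-factor cells was 4.19 to 4.94 for Myl2 and 2.07 to 2.56 for Myh7, and of the 10 genes Myl4 alone changed sign (−0.02 to 0.10). No paired analysis was possible because only the P0 libraries carry replicate numbers. In the E16.5 library, 3 UMIs correspond to 0.0360 per 10000.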
